A study of Mus musculus with 8 samples.

Results

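Open chromatin was compared between mTEC-I and mTEC-II, a pair of sorted populations of medullary thymic epithelial cells (mTEC), with 2 ATAC-seq libraries on each side. All 74090 merged peaks of the series were considered, 58745 of them passed a filter on low values and were tested, and the 4 libraries are part of 8 in the series. The cells came from enzyme-digested thymus of C57BL/6 mice, and no treatment or engineered allele is named for any group. mTEC-I was sorted as CD45-Epcam+MHCIIlowItgb4+ and mTEC-II as CD45-Epcam+MHCIIhigh. The sources used here do not give age, sex or the number of animals pooled per library. The other populations, mTEC-III (CD45-Epcam+Ly6D+) and mTEC-IV (CD45-Epcam+MHCIIlowItgb4-L1cam+), also with 2 libraries each, entered the fit to estimate the spread and are quoted for reference. The study separated these populations by single-cell transcripts and asked what their accessible chromatin looks like. Beyond the absence of CD45 and the presence of Epcam, the mTEC-II gate as labelled selects on high MHCII alone. Cells high in MHCII include those that express Aire, so differences at genes of that stage are not independent of the sort.

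The thymic medulla is where developing T cells are screened against self antigens. Medullary epithelial cells low in MHC class II include cells with keratins and adhesion molecules of a basal epithelial layer, while cells high in MHC class II include those that express Aire, the nuclear regulator through which medullary cells transcribe many tissue-restricted genes. Signalling by the TNF family receptor RANK (Tnfrsf11a) through NF-kB is known to be needed for Aire-expressing cells to form. ATAC-seq uses a transposase that cuts accessible DNA, so a peak marks an open promoter or a distal regulatory element, and a higher value does not by itself measure transcription.

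Values are tags per 10000000 total tags after normalization, called tags below. A gene's value is the sum over merged peaks that the authors assigned to it as nearest gene and that lay within 10 kb of an annotated transcription start site (TSS). It is accessibility near the start, not expression. Differences are log2(mTEC-I) minus log2(mTEC-II), each after adding 1 tag, so positive values mean more open in mTEC-I. A peak or gene is called when limma's adjusted p is under 0.05. Where the labels name no separate animals, these p-values measure only the spread between libraries, which may be technical. In sorted bulk cells, a lower share of cells with an open site cannot be told apart from a less open site in each cell.

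Promoters with large differences are given first, as examples of start sites that differed between the populations. Among called peaks within 250 bases before to 50 after a start, with a mean log2(value + 1) of at least 4 over the 4 libraries and a match to a RefSeq promoter, the 3 largest differences in each direction lay at Tpm1, Krt5 and Serpinb5 for mTEC-I and at Mfsd6l, Cldn7 and Liph for mTEC-II. The 250 bases before each RefSeq start (build GRCm38.p6) are given 5′ to 3′ in the direction of transcription. Capitals mark GGAATG or its reverse complement, the core bound by TEAD factors, a motif singled out after its shares were seen.

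Tpm1: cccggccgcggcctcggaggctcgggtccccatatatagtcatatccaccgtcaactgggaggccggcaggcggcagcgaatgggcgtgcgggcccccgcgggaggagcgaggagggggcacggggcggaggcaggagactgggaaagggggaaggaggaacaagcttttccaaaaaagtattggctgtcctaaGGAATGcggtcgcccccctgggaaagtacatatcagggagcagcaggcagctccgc
Krt5: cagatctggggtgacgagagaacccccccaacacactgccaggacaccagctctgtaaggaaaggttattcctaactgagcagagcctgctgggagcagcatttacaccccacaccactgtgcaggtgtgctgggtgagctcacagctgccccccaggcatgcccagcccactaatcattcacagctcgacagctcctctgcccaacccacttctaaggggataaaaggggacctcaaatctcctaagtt
Serpinb5: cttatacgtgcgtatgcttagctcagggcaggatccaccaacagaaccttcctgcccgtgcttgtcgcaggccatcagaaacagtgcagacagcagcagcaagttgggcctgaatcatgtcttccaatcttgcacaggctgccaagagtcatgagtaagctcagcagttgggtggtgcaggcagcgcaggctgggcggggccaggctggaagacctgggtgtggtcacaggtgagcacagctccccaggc
Mfsd6l: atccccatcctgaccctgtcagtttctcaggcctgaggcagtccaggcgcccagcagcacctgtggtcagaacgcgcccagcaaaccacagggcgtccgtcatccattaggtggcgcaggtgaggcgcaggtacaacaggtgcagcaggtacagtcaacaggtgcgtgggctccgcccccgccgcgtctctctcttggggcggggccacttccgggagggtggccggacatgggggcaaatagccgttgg
Cldn7: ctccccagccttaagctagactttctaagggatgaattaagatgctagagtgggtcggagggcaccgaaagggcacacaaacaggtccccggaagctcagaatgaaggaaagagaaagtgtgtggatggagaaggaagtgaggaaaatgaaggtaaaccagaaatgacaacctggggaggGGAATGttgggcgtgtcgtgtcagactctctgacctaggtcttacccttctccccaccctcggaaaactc
Liph: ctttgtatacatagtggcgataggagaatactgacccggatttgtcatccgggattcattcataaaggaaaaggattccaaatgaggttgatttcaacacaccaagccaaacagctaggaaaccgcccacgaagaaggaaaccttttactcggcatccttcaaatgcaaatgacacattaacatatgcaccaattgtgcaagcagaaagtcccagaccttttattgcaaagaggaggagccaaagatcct

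These windows are chr9:67049214-67049463 (minus strand) for Tpm1, a tropomyosin of actin filaments; chr15:101712906-101713155 (minus strand) for Krt5, the basal type II keratin; and chr1:106860925-106861174 (plus strand) for Serpinb5 (maspin), an epithelial serpin. The mTEC-II windows are chr11:68555936-68556185 (plus strand) for Mfsd6l, a predicted membrane transporter; chr11:69964529-69964778 (plus strand) for Cldn7, a claudin of epithelial junctions; and chr16:21995543-21995792 (minus strand) for Liph, a lipase that releases lysophosphatidic acid. The peak at the Tpm1 start held 48.9 and 51.2 tags in mTEC-I and 8.08 and 6.17 in mTEC-II. The Mfsd6l start peak held 5.78 and 7.55 tags in mTEC-I and 62.3 and 54.0 in mTEC-II. No library of one population overlapped the other at either peak. Peak positions are in the authors' mm9 coordinates, and it was not checked that the RefSeq start is the one the authors' annotation used.

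Among start-site peaks more open in mTEC-I, 304 of 420 genes matched a RefSeq promoter, and 271 of 367 did for mTEC-II. GGAATG occurred in 20.1% of the mTEC-I promoters (300-base windows, both strands), in 8.12% of the mTEC-II promoters, in 11.2% of 6519 promoters with a tested peak that was not called, and in 14.6% of all 27025 RefSeq promoters. The AP-1 pattern TGANTCA was held by 5.26% of mTEC-I promoters, 8.12% of mTEC-II promoters, 4.77% of those not called and 7.93% of all RefSeq promoters. The median G or C content was 64.0% in mTEC-I promoters and 57.7% in mTEC-II promoters, with 62.0% in those not called, and these promoters held medians of 20, 17 and 22 CG dinucleotides. The other patterns are given as shares of mTEC-I promoters, mTEC-II promoters, those not called and all RefSeq promoters, in that order. The GATA pattern AGATAA occurred in 6.58%, 9.96%, 4.89% and 11.4%, and the TATA pattern TATAAA in 5.92%, 8.86%, 5.86% and 14.2%. The SOX pattern ACAANG occurred in 29.6%, 34.7%, 31.4% and 41.6%, and the E-box CAGCTG in 19.1%, 16.2%, 14.5% and 16.1%. For GATA, TATA and SOX the mTEC-II share was below that of all RefSeq promoters. The Grhl pattern AACNNGTT occurred in 3.62%, 5.17%, 3.11% and 4.19%, and the ETS pattern AGGAAGNG in 13.5%, 14%, 13.3% and 13.1%. Of 4 longer patterns given here by name, the NF-kB pattern occurred in 2.96%, 1.85%, 2.07% and 1.62%, the interferon factor pattern in 3.62%, 1.85%, 2.67% and 3.49%, and the CTCF core in 2.3%, 2.95%, 2.91% and 1.32%. A loose p63 core occurred in 88.2%, 80.4%, 87.7% and 70%, so that the mTEC-I share was close to that of promoters not called. A letter match is a description and says nothing of binding. The patterns can overlap one another, and their shares move with base composition.

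Of the 58745 tested peaks, 5560 (9.46%) were more open in mTEC-I and 5832 (9.93%) in mTEC-II, 19.4% in all. edgeR called 13.8% and 12.9% of the 65621 peaks it tested. Both libraries of one side lay above both of the other at 29.5% of peaks (mTEC-I above) and 32.4% (mTEC-II above), called or not. Called peaks differed by a median of 2.41 on the log2 scale in the mTEC-I direction and 2.20 in the mTEC-II direction, and 69.4% and 58.7% of them differed more than 4-fold. Peaks more open in mTEC-I had median values of 23.6 and 23.7 tags in the mTEC-I libraries and 3.46 and 3.85 in those of mTEC-II. The mTEC-III medians at these peaks were 6.79 and 6.14 and the mTEC-IV medians 2.86 and 3.13. Peaks more open in mTEC-II had medians of 3.11 and 3.24 tags in mTEC-I against 20.8 and 22.4 in their own libraries, and here the mTEC-III medians were 18.7 and 18.4 and the mTEC-IV medians 12.1 and 13.1. The mTEC-I set was thus low in all 3 other populations, while the mTEC-II set stood at intermediate to high levels in mTEC-III and mTEC-IV. Selection enters these levels, since a peak could join the table and pass the filter through mTEC-III or mTEC-IV. Of the mTEC-II set 21.6% were in no authors' list of the pair, against 1.21% of the mTEC-I set. With the filter on the 4 compared libraries, 5859 and 4977 of 45856 peaks were called toward mTEC-I and mTEC-II. At gene level, 861 of 15033 tested genes (5.73%) were more open in mTEC-I and 1009 (6.71%) in mTEC-II, 12.4% in all, with median differences of 1.25 and 1.20. edgeR called 8.81% and 9.26% of 15331 genes, and 26.6% and 30.6% of the genes had libraries that did not overlap in these directions.

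The libraries differed in depth. The mTEC-I libraries had 8574918 and 7033324 total tags and the mTEC-II libraries 3606436 and 6212177, of which 19.7% and 19.7% against 17.8% and 15.3% lay in merged peaks. Values of the mTEC-I replicates correlated at r = 0.943 across peaks and those of the mTEC-II replicates at 0.862, with 0.651 to 0.663 between populations (peaks are not independent replicates). With the authors' scaling to total tags, without TMM factors, the median of all genes moved from -0.04 to 0.19, and the share of calls in the mTEC-I direction moved from 48.8% to 65.2% for peaks and from 46.0% to 71.2% for genes. Leaving out mTEC-I replicate 1 or 2 reduced the peaks more open in mTEC-I to 356 or 334, and leaving out mTEC-II replicate 1 or 2 gave 2459 or 3842. For peaks more open in mTEC-II these fits gave 2365, 2253, 2806 and 3185. In each such fit the remaining library was assumed to vary like the other groups. The filter was also applied again, so peaks with at least 10 tags only in the group reduced to 1 library were not tested. Tested peaks fell from 58745 to 53513 or 53621 without mTEC-I replicate 1 or 2. Without mTEC-II replicate 1 or 2 they fell to 57827 or 57480. These counts therefore cannot compare how well the 2 directions repeat.

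Called peaks lay mostly away from promoters. Within 1 kb of a TSS, 4.39% of tested peaks were more open in mTEC-I and 3.80% in mTEC-II. At 1 to 10 kb the shares were 7.69% and 13.1%, and at 10 to 100 kb 11.4% and 12.6%. Beyond 100 kb the order was the other way, with 17.5% more open in mTEC-I and 9.26% in mTEC-II. Among peaks beyond 100 kb with a mean of 10 to 20 tags over the 4 libraries the shares were 21.1% and 9.26%, so the gap was also present among peaks of like level. No test was made of these shares, since neighbouring peaks are not independent. Peaks annotated as LTR, LINE, SINE or DNA elements were more often called toward mTEC-II than mTEC-I. For long terminal repeats (LTR) 10.4% were more open in mTEC-I and 19.9% in mTEC-II. The shares for the ERVK family of endogenous retroviruses were 8.54% and 23.5%. For L1 elements the shares were 8.94% and 19.8%, against 9.72% and 9.43% of peaks with no such annotation. Repeat peaks were low, with a median level of 10.8 tags for LTR against 15.2 without annotation, but at 10 to 20 tags the LTR shares were 14% and 20.5%, against 12.9% and 10% without annotation. Some repeats leaned the other way, with 19.4% and 12.4% for the 170 L2 peaks, 6.99% and 5.59% for 143 simple repeats and 7.41% and 3.7% for 54 low-complexity peaks. CpG island peaks were called in 3.86% and 2.93% of cases. Reads in repeats can map to several copies, and the sources used here do not say how they were placed.

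**Figure D1:**
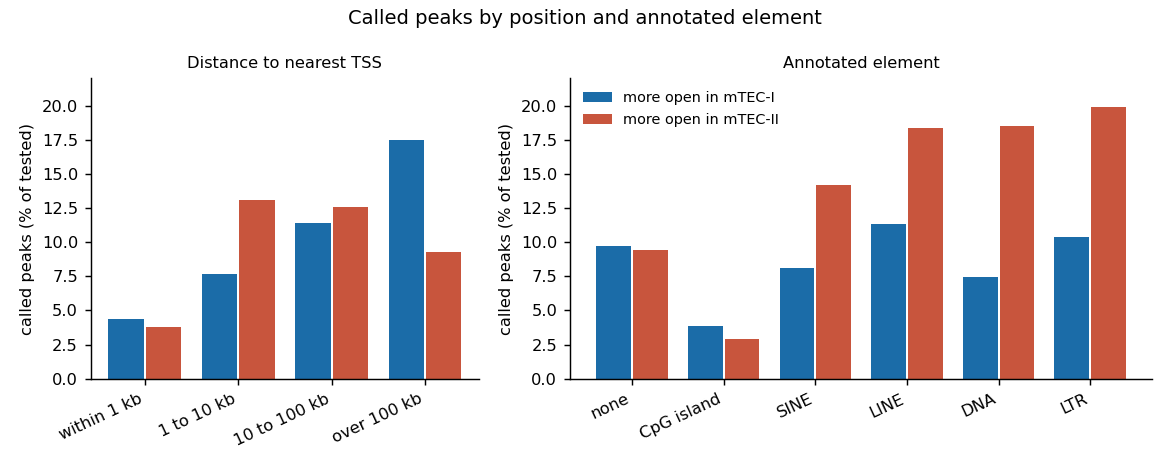
Percentage of tested merged peaks called more open in mTEC-I (blue) or mTEC-II (red), by distance to the nearest TSS (left) and by the authors' annotation (right). Beyond 100 kb the mTEC-I share is 17.5% and the mTEC-II share 9.26%, while each of the 4 repeat classes drawn (SINE, LINE, DNA and LTR) has the higher share in mTEC-II.

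Called peaks differed by up to 5.36 on the log2 scale toward mTEC-I and 5.32 toward mTEC-II, and those described next are the 6 largest on each side among called peaks with a mean log2(value + 1) of at least 4 over the 4 libraries, 1 per nearest gene and without predicted genes. On the mTEC-I side the intergenic peak chr13:69402694-69402916 (mm9), whose nearest start is that of the adenylate cyclase Adcy2 at 264386 bases, held 69.4 and 90.6 tags in mTEC-I and 5.77 and 3.08 in mTEC-II, a difference of 3.93 ± 0.55 (SE; limma adjusted p = 0.000435). An intronic peak of Sdc1 (syndecan 1, a cell surface proteoglycan), 10792 bases inside the gene at chr12:8788864-8789125, held 56.9 and 59.3 against 1.15 and 10.8 tags. Both mTEC-I libraries exceeded both mTEC-II libraries at each. The other peaks of this kind were nearest to Zak (3.77), Prickle1 (3.67, a planar polarity gene), Khdc1b (3.64) and Slc38a4 (3.45). The Prickle1 peak was not called in any of the 4 fits that left out 1 library, with adjusted p up to 0.123 (without mTEC-I replicate 2).

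On the mTEC-II side the largest difference above that level was at an intronic peak of Csmd1, chr8:17372377-17372582, with 3.11 and 3.24 tags in mTEC-I and 66.9 and 54.7 in mTEC-II (-3.88 ± 0.33, adjusted p = 1.79e-05). A peak 725 bases before the Sdhaf1 start held 4.00 and 3.24 against 55.4 and 74.8 tags. A peak in exon annotation of Kit, the stem cell factor receptor, at chr5:76036685-76036968 held 6.67 and 3.77 against 64.6 and 64.0 tags. In all 3 the mTEC-I libraries stayed below 7 tags. Peaks nearest to Dcdc2c (-3.72), Rassf3 (-3.52) and Fermt1 (-3.51, kindlin-1, an integrin activator) followed, and all 6 mTEC-II peaks were called in each of the 14 alternative settings. The Csmd1, Sdhaf1, Rassf3, Fermt1 and Kit peaks held at least 21.4 tags in every mTEC-III and mTEC-IV library, whereas the Dcdc2c peak held 62.8 and 55.2 tags in mTEC-III but only 10.0 and 5.22 in mTEC-IV.

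The sort markers were examined first. Itgb4, the integrin beta 4 chain that anchors basal cells through hemidesmosomes and part of the mTEC-I gate, held 93.4 and 74.4 tags in mTEC-I and 66.9 and 41.6 in mTEC-II. The groups did not overlap, but the difference of 0.65 ± 0.25 was not called (adjusted p = 0.0924; edgeR 0.0353). H2-Aa, the MHC class II alpha chain, held 242 and 239 against 338 and 297 tags (-0.40 ± 0.14, adjusted p = 0.0651; edgeR 0.0305). H2-Ab1 held 239 and 216 against 315 and 279 tags (adjusted p = 0.0793). Both MHC class II genes were higher in both mTEC-II libraries, without being called by limma. Epcam, the epithelial marker of all gates, held 141 and 134 against 164 and 146 tags. Ptprc, the gene of CD45, by whose absence all cells were sorted, had no merged peak within 10 kb. Of the sort genes, 0 of 6 tested were called by limma, 3 by unadjusted p under 0.05 and 3 by edgeR.

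Single peaks at these loci moved more than the sums. At Itgb4 an intronic peak 16524 bases before the nearest start, chr11:115819423-115819607, held 45.8 and 43.7 tags in mTEC-I and 8.08 and 8.48 in mTEC-II (2.30, adjusted p = 0.0168). A neighbouring peak at -19218 went the other way, with 1.33 and 4.85 against 16.2 and 11.6 tags (-1.99, adjusted p = 0.0405). The peak at the Itgb4 start was not called (0.55, adjusted p = 0.137). At H2-Aa 1 of 5 peaks was called, at 8957 bases, with 1.78 and 3.77 against 11.5 and 13.1 tags.

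Some basal epithelial genes, 5 of 17 tested, were more open in mTEC-I. Krt5 held 101 and 104 tags in mTEC-I and 26.5 and 16.2 in mTEC-II, a difference of 2.25 ± 0.33 (adjusted p = 0.000238). The mTEC-III and mTEC-IV libraries held 14.1 to 22.1 tags, so mTEC-I alone was high. Lamb3, the beta 3 chain of laminin-332 in the epithelial basement membrane, held 79.2 and 74.4 against 6.92 and 12.3 tags (2.92 ± 0.37, adjusted p = 6.63e-05). A peak 1820 bases before the Lamb3 start was at 0 in both mTEC-II libraries and 10.2 and 17.3 tags in mTEC-I, at least 9.92-fold higher against a floor of 3 read ends over the group. Krt5 and Lamb3 were called in all 14 alternative settings. Pdpn (podoplanin) held 44.5 and 39.9 against 11.5 and 17.7 tags (1.49, adjusted p = 0.0340) but was not called once any 1 library was left out (adjusted p up to 0.252, without mTEC-I replicate 1).

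Of 17 tested genes on the list of basal keratins, integrins and hemidesmosomes, 5 were more open in mTEC-I and 0 in mTEC-II by limma (7 and 0 by edgeR, 9 and 0 at unadjusted p under 0.05), a share of 29.4% beside 5.73% of all genes. The list median was 0.47 beside -0.04 for all genes, and 4 or 5 of its genes stayed called with any 1 library left out. Krt14, the usual partner of Krt5, was not called (99.2 and 117 against 76.2 and 108 tags, adjusted p = 0.502), and its peaks went opposite ways. The peak annotated at -97 held 28.5 and 32.9 tags in mTEC-I and 0 and 3.08 in mTEC-II (3.97, adjusted p = 0.00636). The intronic peak at +583 held 16.9 and 19.4 against 41.5 and 46.3 tags (-1.23, adjusted p = 0.0149). A second start-site peak at -79 did not differ beyond the spread (0.35, adjusted p = 0.684).

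**Figure D2:**
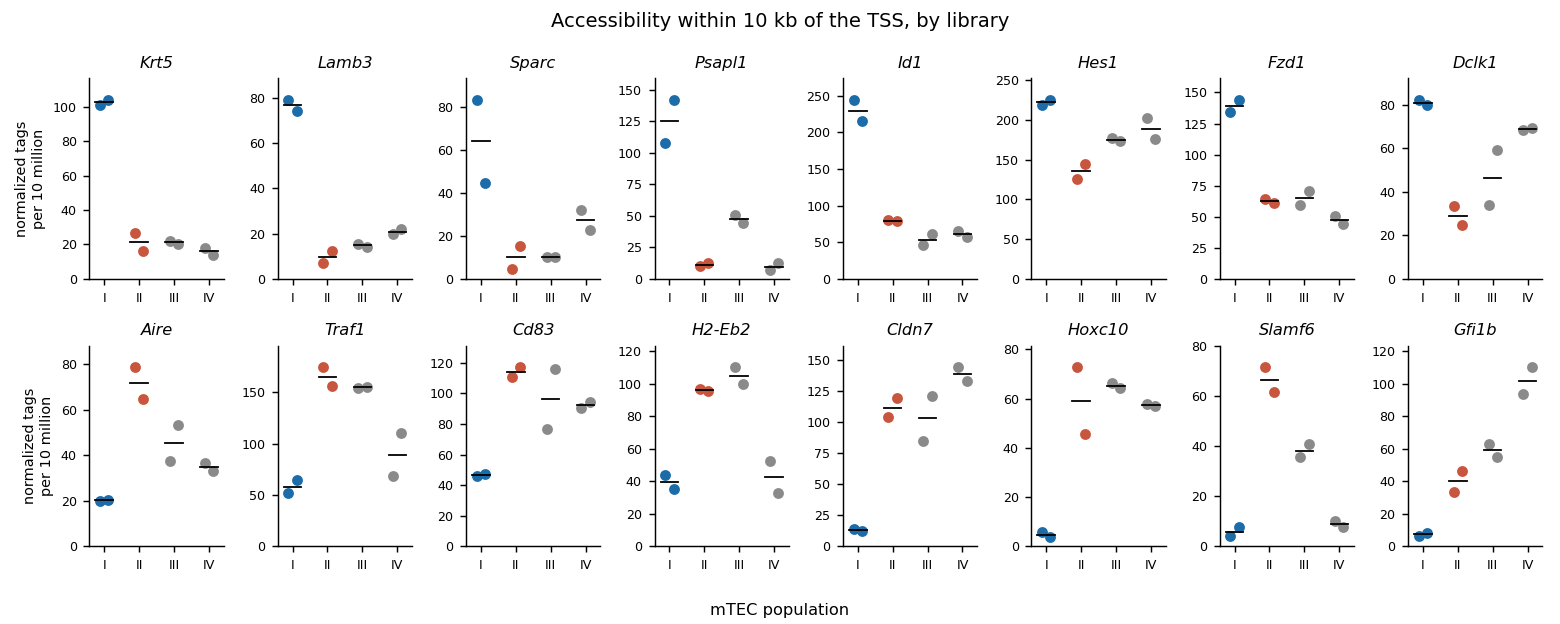
Accessibility within 10 kb of the TSS for 16 genes, in normalized tags per 10000000, with each point a library, the horizontal line the mean of 2 libraries, and populations on the x axis. The upper row shows genes more open in mTEC-I and the lower row genes more open in mTEC-II; mTEC-III and mTEC-IV (grey) are shown for reference, each panel has its own y axis from 0.

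Extracellular matrix genes made up the list with the largest share more open in mTEC-I. Of 24 tested, 11 (45.8%, beside 5.73% of all genes) were called in that direction and 0 in the other by limma. The counts were 13 and 0 by edgeR and 15 and 0 at unadjusted p under 0.05, and the list median was 0.99. Sparc, a matrix glycoprotein, held 83.2 and 44.8 tags in mTEC-I and 4.62 and 15.4 in mTEC-II (2.69 ± 0.47, adjusted p = 0.000902), and was called in all 14 settings. Mgp, an inhibitor of calcification, held 42.7 and 42.6 against 4.62 and 9.25 tags (2.52). Col7a1, the anchoring fibril collagen beneath basal epithelium, held 28.5 and 25.3 against 4.62 and 1.54 tags (2.88), and Thbs1 (thrombospondin 1) 23.1 and 18.9 against 0 and 9.25 (2.77). Without mTEC-I replicate 1 or 2 only 21 of the 24 genes were tested, and Mgp, Thbs1 and Col7a1 were not among them. Mgp and Thbs1 lost the call without mTEC-II replicate 1, and Col7a1 without mTEC-II replicate 2. In the 2 fits that could be made their differences were 2.09 to 2.96 (Mgp), 1.1 to 4.45 (Thbs1) and 2.31 to 3.45 (Col7a1). The count on the list was 3, 3, 5 and 8 without mTEC-I replicate 1, mTEC-I replicate 2, mTEC-II replicate 1 and mTEC-II replicate 2.

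Matrix genes are also marks of mesenchymal cells. Of 5 tested genes on the mesenchyme list 1 (20%, beside 5.73% of all genes) was called, Col1a1, a gene that is on both lists. Col1a1 held 113 and 99.2 against 51.9 and 56.3 tags (0.95, adjusted p = 0.00697). The 8 mesenchyme genes with a merged peak within 10 kb, tested or not, summed to 307 and 288 tags in mTEC-I and 159 and 207 in mTEC-II. Pdgfrb, Col1a2, Dcn and Lum, which define fibroblasts, had no merged peak within 10 kb, and Col3a1, Thy1 and Twist1 were below the filter. The endothelial gene Emcn (endomucin) held 18.2 and 16.2 tags in mTEC-I and was at 0 in both mTEC-II libraries, at least 12.4-fold higher, while Erg held 14.7 and 17.8 against 34.6 and 33.1. The 6 endothelial genes with a merged peak within 10 kb, tested or not, summed to 93.0 and 97.1 against 72.7 and 71.7 tags. Pecam1, Cdh5, Sox17, Vwf and Tie1 had no such peak. What part such cells have in the matrix result was not tested.

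Of 19 tested genes of the mature, Aire-expressing stage 9 were more open in mTEC-II, Aire among them. Aire held 20 and 20.5 tags in mTEC-I and 78.5 and 64.8 in mTEC-II (-1.77 ± 0.28, adjusted p = 0.000454). The mTEC-III libraries held 37.3 and 53.2 and the mTEC-IV libraries 36.4 and 32.9. Its 2 merged peaks, at the start (chr10:77506225-77506387; 17.3 and 18.3 against 61.2 and 49.3 tags) and 2743 bases before it (2.67 and 2.16 against 17.3 and 15.4 tags), were both called. mTEC-II was the highest of the 4 populations, and the groups did not overlap. The 9 genes made up 47.4% of the list, with 0 called toward mTEC-I by limma (9 and 0 by edgeR, 12 and 0 at unadjusted p under 0.05), beside 6.71% of all genes. The list median was -0.68, and -0.46 with the authors' scaling, where 4 genes were called. With 1 library left out the count was 5, 3, 3 and 6, in the order of mTEC-I replicates 1 and 2 and mTEC-II replicates 1 and 2.

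Traf1, an adaptor of TNF receptors and a target of NF-kB, held 51.6 and 64.7 tags in mTEC-I and 174 and 156 in mTEC-II (-1.50 ± 0.20, adjusted p = 0.000131). Cd83, a surface molecule of mature antigen-presenting cells, held 46.3 and 47.4 against 111 and 117 tags (-1.26, adjusted p = 0.000549). Both were called in all 14 settings. Il2rg, the common cytokine receptor chain, held 0.89 and 0 against 11.5 and 13.1 tags (-3.27) and Ctss, the invariant-chain protease cathepsin S, 14.2 and 17.8 against 41.5 and 40.9 (-1.32). Neither of the last 2 kept its call without mTEC-I replicate 2 (adjusted p = 0.118 for Il2rg and 0.0809 for Ctss), and Ctss was not called without any other library either (up to 0.161, without mTEC-I replicate 1). Il2rg could not be tested without mTEC-II replicate 1 or 2. Fezf2, another regulator of tissue-restricted genes, held 36.9 and 36.7 against 46.2 and 67.8 tags and was not called (adjusted p = 0.175).

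Of 21 tested NF-kB genes, 5 were more open in mTEC-II (23.8%, beside 6.71% of all genes) and 0 in mTEC-I by limma (6 and 0 by edgeR, 10 and 1 at unadjusted p under 0.05), with a median of -0.35 that became -0.12 with the authors' scaling. The count of 5 became 1 with the authors' scaling and 2 after thinning to equal depth. Without mTEC-I replicate 1, mTEC-I replicate 2, mTEC-II replicate 1 or mTEC-II replicate 2 it became 1, 2, 2 or 3. Tnfrsf11a (RANK) held 95.2 and 84.7 against 149 and 141 tags (-0.68, adjusted p = 0.0146). This call was lost without mTEC-I replicate 1, mTEC-I replicate 2 or mTEC-II replicate 1 (adjusted p 0.0718, 0.180 and 0.0794) and with the authors' scaling (0.420). The difference at Tnfrsf11a lay in particular peaks. An intronic peak 32134 bases before the nearest start, chr1:107645085-107645248, held 0.445 and 0.539 tags in mTEC-I and 32.3 and 36.2 in mTEC-II (-4.56 ± 0.50, adjusted p = 9.1e-05), and one at +4088 held 8.90 and 2.70 against 39.2 and 51.6 (-2.93). The start peak (-0.53, adjusted p = 0.124) and the largest peak of the locus, 86262 bases inside (0.04), were not called. At Traf1 likewise an intronic peak at +3555 held 4.89 and 10.2 against 51.9 and 60.1 tags (-2.80), and the start peak was not called (-0.63, adjusted p = 0.293).

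Rel, an NF-kB subunit, held 82.3 and 98.7 against 178 and 127 tags (-0.73) and Traf6, an adaptor below RANK, 48.5 and 40.4 against 75 and 92.5 (-0.90). Nfkbia, the inhibitor IkB alpha and itself an NF-kB target, held 367 and 371 against 485 and 469 tags (-0.37, adjusted p = 0.0303). Rel and Traf6 were each lost in part of the fits with 1 library left out (adjusted p up to 0.173 without mTEC-I replicate 1 and 0.197 without mTEC-I replicate 2), Nfkbia in all 4 (up to 0.190, without mTEC-I replicate 1), and all 3 with the authors' scaling (0.349, 0.235 and 0.860). Nfkbia was among the genes with most called peaks, with 7 of 17 tested peaks within 100 kb more open in mTEC-II. Its start peak was not called (-0.34, adjusted p = 0.170), while peaks at -13470 (10.7 and 8.63 against 31.2 and 29.3 tags) and +26916 (8.90 and 9.71 against 33.5 and 37.0) were.

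**Figure D3:**
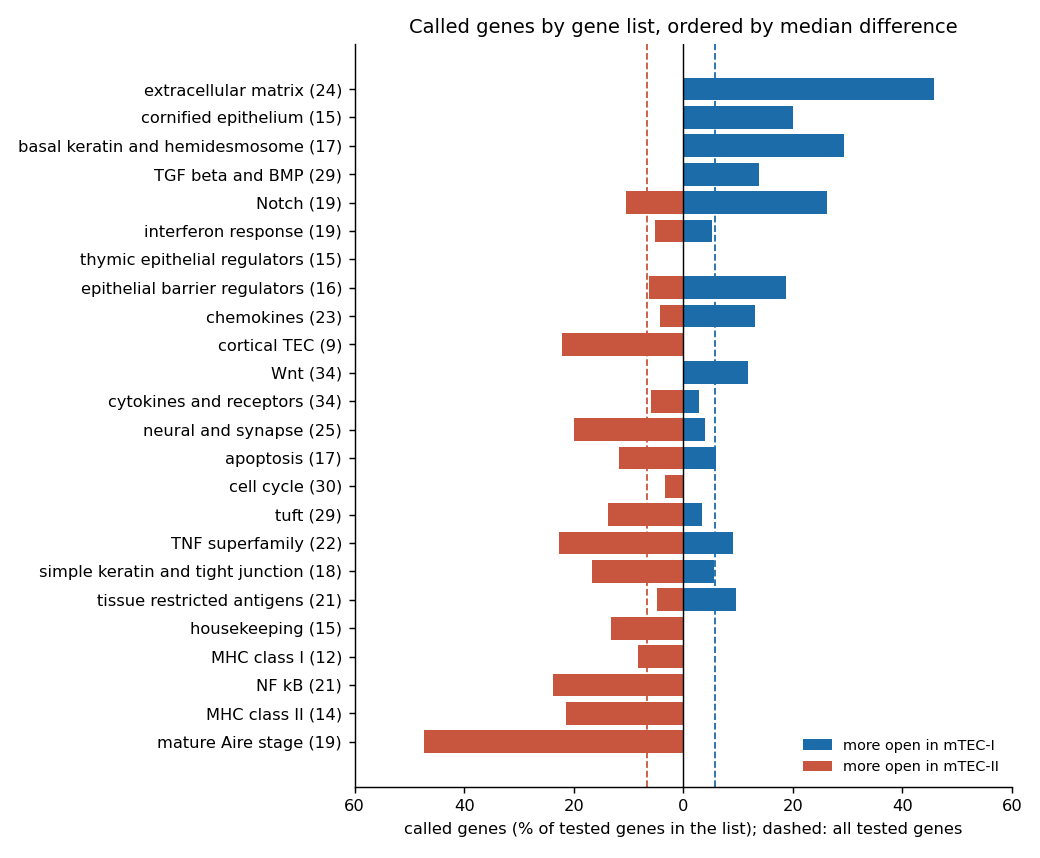
Percentage of tested genes in each gene list (number tested in brackets) called more open in mTEC-I (blue, right) or mTEC-II (red, left), ordered by the list's median difference; dashed lines mark 5.73% and 6.71%, the shares of all tested genes. Of the lists drawn, extracellular matrix (45.8% toward mTEC-I) and the mature Aire stage (47.4% toward mTEC-II) stand at the ends; the sort genes and the lists of other cell types, with 5 or 6 tested genes each, are not drawn.

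TNF family genes were called in both directions. Of 22 tested, 5 (22.7%, beside 6.71% of all genes) were more open in mTEC-II. Another 2, Tnfsf10 and Ngfr, were more open in mTEC-I (9.09%, beside 5.73%). Without mTEC-I replicate 2 these counts were 1 and 1, and with the authors' scaling 3 and 2. The median of -0.14 turned to 0.09 with the authors' scaling. Cd70, the ligand of CD27, held 19.6 and 18.3 tags in mTEC-I and 60 and 60.9 in mTEC-II (-1.62, adjusted p = 0.00421; 0.0565 without mTEC-I replicate 2). A peak 5865 bases from its start, chr17:57283231-57283439, was at 0 in both mTEC-I libraries and at 28.8 and 37.8 tags in mTEC-II, at least 45.5-fold lower in mTEC-I. Lta (lymphotoxin alpha) held 5.34 and 6.47 against 24.2 and 30.8 tags (-2.04), called in all 14 settings. Tnfsf9 (4-1BB ligand) held 25.4 and 20.5 against 58.9 and 52.4 tags, and its receptor Tnfrsf9 4.89 and 10.8 against 46.2 and 20. Tnfsf9 lost its call without mTEC-I replicate 2 (adjusted p = 0.0945) and Tnfrsf9 without any of the 4 libraries (up to 0.322, without mTEC-I replicate 1).

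Of 14 tested MHC class II genes, 3 (21.4%, beside 6.71% of all genes) were more open in mTEC-II and 0 in mTEC-I by limma (6 and 0 by edgeR, 7 and 0 at unadjusted p under 0.05), with a median of -0.38. With the authors' scaling 1 gene was called and the median was -0.15. H2-Eb2 held 43.6 and 35.0 against 96.9 and 95.6 tags (-1.28 ± 0.24, adjusted p = 0.00152), and its 14 alternative fits all kept the call. H2-Eb1, an MHC class II beta chain, held 307 and 301 against 493 and 438 tags (-0.61, adjusted p = 0.00273; 0.523 with the authors' scaling). At this locus a peak at -6312 held 8.90 and 11.3 against 50.8 and 34.7 tags (-1.96), while the start peak was not called (-0.45, adjusted p = 0.104). Rfx5, a factor that binds MHC class II promoters, held 152 and 126 against 208 and 202 tags (-0.57) and was not called without any of the 4 libraries (up to 0.297, without mTEC-I replicate 2). In MHC class I, 1 of 12 genes (8.33%, beside 6.71% of all genes) was called, H2-K1 (160 and 175 against 256 and 216 tags, adjusted p = 0.0353). With the authors' scaling its adjusted p was 0.693. Without mTEC-I replicate 1 the H2-K1 adjusted p was 0.262.

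Myeloid, dendritic and B cells also carry open MHC class II and NF-kB loci. Of 6 tested myeloid and dendritic genes 3 (50%, beside 6.71% of all genes) were more open in mTEC-II. These were Flt3 (3.56 and 7.01 against 33.5 and 27 tags), Cd68 (0.445 and 6.47 against 13.8 and 17.7) and Itgam (0 and 0.539 against 4.62 and 17.7). The 6 summed to 163 and 180 tags in mTEC-I and 233 and 250 in mTEC-II. Itgax, Csf1r, Lyz2, Xcr1, Siglech and Adgre1, which define these cells, had no merged peak within 10 kb. Of 6 tested B cell genes 2 (33.3%, beside 6.71% of all genes) were more open in mTEC-II. These were Cr2 (11.6 and 9.17 against 45.0 and 22.4 tags) and Blnk (39.6 and 36.7 against 53.1 and 73.2). The 6 B cell genes summed to 142 and 109 against 168 and 200 tags, and Ms4a1 and Pax5 had no merged peak within 10 kb. Of 5 tested thymocyte genes Lck alone (20%, beside 6.71% of all genes) was called toward mTEC-II (0 and 0.539 against 3.46 and 4.63 tags). The 6 thymocyte genes with a merged peak within 10 kb, tested or not, summed to 204 and 188 against 155 and 179 tags. Cd3e, Cd3d, Cd3g, Cd8a, Cd8b1, Rag2, Ptcra, Cd28 and Themis had no such peak. Among these genes Flt3 alone was called in all 14 settings. Lck reached 10 tags only in mTEC-III and mTEC-IV libraries. With the filter on the 4 compared libraries, 0 of 3 thymocyte genes were called toward mTEC-II. In that setting 2 of 5 myeloid and dendritic genes and 2 of 3 B cell genes were. The part of other cells in the mTEC-II results was not tested.

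Calls at junction genes went both ways, with claudins on each side. Cldn7 held 13.8 and 12.4 tags in mTEC-I and 104 and 119 in mTEC-II (-2.99 ± 0.22, adjusted p = 1.04e-07). The mTEC-III and mTEC-IV libraries held 84.9 to 144, so mTEC-I alone was low. Both the Cldn7 start peak (12.9 and 11.3 against 76.2 and 82.5 tags) and an intronic peak at +4943 (0 and 1.08 against 18.5 and 23.9 tags) were called. Cldn3 held 32.5 and 35.6 against 69.2 and 79.4 tags (-1.10, adjusted p = 0.00141; 0.0595 with the authors' scaling), and Cldn4 32.0 and 34.5 against 56.5 and 53.2 (-0.71, adjusted p = 0.0527). Cldn1 differed the other way (35.1 and 41.5 against 13.8 and 18.5 tags, 1.20, adjusted p = 0.0229; 0.235 without mTEC-I replicate 2). Krt8, the simple epithelial keratin, held 106 and 115 against 126 and 119 tags and was not called. On the list of simple keratins and tight junctions 3 of 18 genes (16.7%, beside 6.71% of all genes) were more open in mTEC-II, namely Cldn3, Cldn7 and Cldn23. Cldn1 alone (5.56%, beside 5.73%) was more open in mTEC-I. By edgeR the counts were 4 toward mTEC-II and 4 toward mTEC-I, with a pseudocount of 5 they were 3 and 3, and with the authors' scaling 1 and 2, so the balance between the sides changed with the setting. Its median of -0.19 became 0.04 with the authors' scaling.

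Developmental signalling genes were called mainly toward mTEC-I. Among TGF beta and BMP genes, 4 of 29 were more open in mTEC-I and 0 in mTEC-II by limma (10 and 0 by edgeR, 12 and 0 at unadjusted p under 0.05), beside 5.73% of all genes called toward mTEC-I. The 4 became 7 with the authors' scaling, and 1 when any library except mTEC-II replicate 1 was left out. Id1, an inhibitor of basic helix-loop-helix factors and a BMP target, held 244 and 215 tags in mTEC-I and 79.6 and 79.4 in mTEC-II (1.51 ± 0.19, adjusted p = 7.39e-05). Every mTEC-III and mTEC-IV library was below 66 tags. Smad6, an inhibitor of BMP signals, held 214 and 235 against 148 and 95.6 tags (0.91), the ligand Bmp6 54.3 and 58.8 against 25.4 and 27 (1.08), and the receptor Tgfbr1 187 and 187 against 151 and 105 (0.57). Id1 was called in all 14 settings, and the other 3 were not called in most or all of the fits with 1 library left out (adjusted p up to 0.297, for Tgfbr1 without mTEC-II replicate 2).

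Of 19 Notch pathway genes, 5 (26.3%, beside 5.73% of all genes) were more open in mTEC-I, namely Jag1, Dll1, Hes1, Hey1 and Nrarp. Another 2 (10.5%, beside 6.71%), Notch4 and Dll4, were more open in mTEC-II, so the ligands went both ways. Without 1 library the counts were 2 to 4 and 1 or 2, and with the authors' scaling 3 and 0. Dll1 held 87.2 and 85.7 against 30.0 and 43.9 tags (1.23 ± 0.23, adjusted p = 0.00171), and Dll4 held 36.5 and 37.7 against 73.9 and 98.7 (-1.18 ± 0.23, adjusted p = 0.00244; 0.0531 with the authors' scaling). The Notch target Hes1 held 219 and 225 against 126 and 145 tags (0.71, adjusted p = 0.00274), with 71.2 and 66.9 against 31.2 and 39.3 at its start peak. Notch4 held 18.7 and 18.3 against 38.1 and 46.3 tags (-1.14, adjusted p = 0.0147; 0.117 without mTEC-I replicate 2). Of 34 Wnt genes 4 (11.8%, beside 5.73% of all genes) were more open in mTEC-I and 0 in mTEC-II by limma. The counts were 8 and 1 by edgeR and 10 and 2 at unadjusted p under 0.05. The 4 limma calls became fewer with any 1 library left out. Among them the receptor Fzd1 held 134 and 144 against 64.6 and 60.9 tags (1.14, called in all 14 settings), Wnt5b 99.2 and 87.3 against 50.8 and 47.0, Nkd1 37.4 and 29.7 against 18.5 and 10.0, and Dkk3 16.0 and 17.3 against 0 and 3.08. Wnt5b, Nkd1 and Dkk3 each lost the call without at least 1 library (adjusted p up to 0.131 and 0.269 without mTEC-I replicate 1, and 0.159 without mTEC-II replicate 1).

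Among regulators of epithelial identity the calls by 10 kb sums were on the barrier list. Of 15 thymic epithelial regulators 0 were called by limma and 0 by edgeR, with 2 and 0 at unadjusted p under 0.05 toward mTEC-I and mTEC-II. When peaks at any distance were summed, 10 of 16 were called toward mTEC-I and 0 toward mTEC-II. More genes were called in that setting as a whole, 2160 and 2065 of 17636. Foxn1, the master regulator of thymic epithelium, held 79.6 and 76.6 against 51.9 and 62.4 tags (0.45, adjusted p = 0.338), although an intronic peak at 12131 bases held 42.7 and 32.9 against 11.5 and 14.6 (1.46, adjusted p = 0.0261). Trp63, the basal epithelial factor p63, held 38.7 and 38.8 against 19.6 and 43.9 tags and the groups overlapped. Within 100 kb, 5 of its 15 peaks were called, 3 more open in mTEC-I and 2 in mTEC-II. The peak at +24334 held 34.7 and 29.1 against 9.23 and 6.94 tags (1.86), and that at -49917 held 4.00 and 0.539 against 12.7 and 29.3 (-2.88). Of 16 barrier regulators 3 (18.8%, beside 5.73% of all genes) were more open in mTEC-I. These were Klf5 (147 and 141 against 85.4 and 87.1 tags), Tfap2a (95.2 and 91.1 against 46.2 and 53.2) and Ehf (159 and 153 against 94.6 and 104). Elf3 alone (6.25%, beside 6.71%) was more open in mTEC-II (171 and 155 against 254 and 218). Each of these 4 lost the call without mTEC-I replicate 1 (adjusted p 0.101, 0.170, 0.145 and 0.0665).

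Genes with large differences, among those with a mean log2(value + 1) of at least 4 over the 4 libraries, included several not described above. Psapl1, a saposin-like gene, held 108 and 142 tags in mTEC-I and 10.4 and 12.3 in mTEC-II (3.34 ± 0.34, adjusted p = 7.7e-06) and 44 to 50.9 for mTEC-III. Crp (C-reactive protein, a liver acute-phase protein) held 66.3 and 61.5 against 4.62 and 8.48 tags (3.15), Ces1b, a liver carboxylesterase, 61.4 and 56.1 against 10.4 and 7.71 (2.58), and Serpinb5 35.6 and 44.2 against 4.62 and 7.71 (2.54). Crp, Ces1b and Serpinb5 stayed called in every fit that could be made with 1 library left out (adjusted p up to 0.0281, for Serpinb5). Of 21 tested tissue-restricted antigen genes 2 (9.52%, beside 5.73% of all genes) were more open in mTEC-I, Crp and Apoc1. Fabp1 alone (4.76%, beside 6.71%) was more open in mTEC-II, and the list median was -0.25. Fabp1 held 0.445 and 0 against 4.62 and 12.3 tags, and 56.4 and 46.0 in mTEC-IV. With the filter on the 4 compared libraries, 0 of 20 genes were called toward mTEC-II. Apoc1 and Fabp1 lost the call in part or all of the fits with 1 library left out.

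On the mTEC-II side Hoxc10, a posterior homeobox gene, held 5.78 and 3.77 tags in mTEC-I and 72.7 and 45.5 in mTEC-II (-3.36 ± 0.32, adjusted p = 3.79e-06). Its mTEC-III and mTEC-IV libraries held 56.9 to 66.2 tags, so mTEC-I alone was low. Slamf6, a receptor of lymphocytes, held 4.00 and 7.55 against 71.5 and 61.7 tags (-3.37), Lsp1, a leukocyte actin-binding protein, 4.89 and 5.39 against 48.5 and 67.1 (-3.24), and Klrg1, an inhibitory receptor of T and NK cells, 8.01 and 6.47 against 49.6 and 75.5 (-2.92). Cmah, which makes the sialic acid Neu5Gc, held 9.34 and 1.08 against 66.9 and 66.3 tags (-3.87), and Zp2, an egg coat protein, 6.67 and 7.01 against 69.2 and 57.8 (-3.04). Hoxc10, Slamf6, Lsp1, Klrg1, Cmah and Zp2 were called in all 14 settings. For Dock2, a leukocyte signalling gene, the mTEC-I libraries were apart (1.33 and 18.9 tags against 70.4 and 57.8), and DESeq2 gave an adjusted p of 0.0809.

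A minority of tuft cell and neural genes were called. Of 29 tuft cell genes, 4 (13.8%, beside 6.71% of all genes) were more open in mTEC-II (Gfi1b, Gnb3, Alox5ap and Sh2d7). Dclk1 alone (3.45%, below the 5.73% of all genes) was more open in mTEC-I. Only 15 of the 29 passed the filter within the 4 compared libraries, where 3 and 1 were called. Without mTEC-I replicate 1, mTEC-I replicate 2, mTEC-II replicate 1 or mTEC-II replicate 2 the 4 became 2, 2, 1 or 3, and Alox5ap and Sh2d7 lost the call (adjusted p up to 0.149 without mTEC-I replicate 2 and 0.0895 without mTEC-I replicate 1). The list's median of -0.10 became 0.08 with the authors' scaling. Gfi1b, a transcriptional repressor of tuft and blood cells, held 6.67 and 8.09 tags in mTEC-I against 33.5 and 46.3 in mTEC-II (-2.27, adjusted p = 6.63e-05), and 93.6 and 110 in mTEC-IV. The 29 tuft genes summed to 661 and 647 tags in the mTEC-I libraries, 642 and 605 in those of mTEC-II, and 1990 and 1920 in those of mTEC-IV. Dclk1, a kinase often used to mark tuft cells, went the other way, with 82.3 and 79.8 against 33.5 and 24.7 tags (1.46, adjusted p = 0.00145). Both were called in all 14 settings. Of 25 neural and synaptic genes 5 (20%, beside 6.71% of all genes) were more open in mTEC-II. Nrxn3 alone (4.0%, below the 5.73% of all genes) was more open in mTEC-I. The 5 became 2 without mTEC-I replicate 1, and with the authors' scaling the counts were 4 and 4. Kcnj3, a potassium channel, held 1.33 and 1.62 against 36.9 and 22.4 tags (-3.59) and Cntn1, an axonal adhesion molecule, 1.33 and 2.16 against 24.2 and 26.2 (-3.27), both called in all 14 settings. Of 30 cell cycle genes only Aurkb (3.33%, beside 6.71% of all genes) was called (165 and 173 against 299 and 218 tags, -0.59, adjusted p = 0.0151). The call was lost without mTEC-II replicate 1, and the cell cycle median of -0.09 became 0.14 with the authors' scaling. Of 15 housekeeping genes 2 (13.3%, beside 6.71% of all genes) were more open in mTEC-II and 0 in mTEC-I by limma. The counts were 5 and 0 by edgeR and 6 and 0 at unadjusted p under 0.05. The housekeeping median of -0.25 became -0.03 with the authors' scaling, where 0 were called.

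In the main fit, chemokine and cornified genes were called toward mTEC-I above the share of all genes, and cytokine genes below it. Of 23 tested chemokine genes 3 (13.0%, beside 5.73% of all genes) were more open in mTEC-I, namely Ccl20, Cxcl14 and Cx3cl1. Ccr7 alone (4.35%, beside 6.71%) was more open in mTEC-II. Toward mTEC-I and mTEC-II the counts were 9 and 1 by edgeR, and 1 and 1 after thinning to equal depth. Ccl20, a ligand that attracts CCR6-bearing cells, held 12.5 and 17.3 tags in mTEC-I and 2.31 and 0 in mTEC-II (3.11), and Cxcl14 held 22.7 and 18.3 against 3.46 and 3.08 (2.33). Ccr7, the receptor for Ccl19 and Ccl21, held 30.2 and 13.5 against 57.7 and 66.3 (-1.56). Ccl21a, the chemokine much used to mark low-MHC medullary cells, had no merged peak within 10 kb and could not be read. The cytokine gene Il12a held 36.9 and 45.3 against 111 and 77.1 tags (-1.16). Among 34 cytokine and receptor genes 2 were more open in mTEC-II and 1 in mTEC-I. These shares, 5.88% and 2.94%, were below the 6.71% and 5.73% of all genes. Of 19 interferon response genes 1 was called each way (5.26%, below the 5.73% and 6.71% of all genes). These were Oas1a (38.7 and 38.8 against 9.23 and 15.4 tags) and Ifit1 (1.33 and 0 against 3.46 and 14.6). With the filter on the 4 compared libraries, 0 of 18 were called toward mTEC-II. Oas1a was lost in 3 of the 4 fits with 1 library left out (adjusted p up to 0.127, without mTEC-I replicate 2) and Ifit1 in 2 (up to 0.252, without mTEC-I replicate 2). Of 15 tested cornified genes 3 (20%, beside 5.73% of all genes) were more open in mTEC-I, and most or all lost the call with 1 library left out. These were Calm4 (18.2 and 11.3 against 3.46 and 1.54 tags), Spink5 (36.5 and 47.4 against 8.08 and 11.6) and Dsc1 (8.01 and 12.4 against 2.31 and 2.31). Without 1 library the adjusted p rose to 0.203 for Ccl20 and 0.0892 for Cxcl14 (without mTEC-II replicate 2), 0.0805 for Ccr7 (without mTEC-I replicate 2), 0.120 for Il12a and 0.175 for Calm4 (without mTEC-I replicate 1), and 0.272 for Spink5 and 0.376 for Dsc1 (without mTEC-I replicate 2).

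Gene sums and single peaks gave different pictures of a locus. Of the 861 genes more open in mTEC-I, 61 had called peaks both within 1 kb and at 1 to 10 kb, 379 within 1 kb only, 313 at 1 to 10 kb only, and 108 had no single called peak. For the 1009 genes more open in mTEC-II these numbers were 72, 328, 508 and 101. Of 17200 genes with a tested peak within 100 kb, 3144 had at least 1 peak more open in mTEC-I, 3846 at least 1 more open in mTEC-II, and 775 had both. Within 100 kb, 8.49% of tested peaks were more open in mTEC-I and 10.0% in mTEC-II.

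A few loci held many called peaks, counted over peaks that are neighbours and so not independent. Fggy, a carbohydrate kinase gene, had 8 of 9 tested peaks more open in mTEC-I, spread from 80981 bases before to 84426 after the start. The exception was the peak at the start itself, with 34.7 and 42.1 tags in mTEC-I and 34.6 and 47.0 in mTEC-II (-0.08, adjusted p = 0.872). Rassf3, a Ras association domain gene, had 8 of 17 peaks more open in mTEC-II, and its start peak also did not differ beyond the spread (82.7 and 79.8 against 83.1 and 75.5 tags). Its peak at +30123 held 8.45 and 3.77 against 83.1 and 69.4 tags, close to the level of the start peak in mTEC-II. The 10 kb sums of Fggy (0.45) and Rassf3 (-0.14) were not called. Gse1 had 9 of 19 peaks more open in mTEC-II and its sum was called (145 and 141 against 292 and 263 tags, -0.95; adjusted p = 0.104 with the authors' scaling).

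At some loci elements of both kinds lay side by side, in genes chosen after their values were seen. Tiam1, an activator of Rac, had 5 peaks more open in mTEC-I and 5 in mTEC-II among 25. The peak at -60587, chr16:90035409-90035653, was at 0 in both mTEC-I libraries and at 34.6 and 28.5 tags in mTEC-II, at least 43.1-fold lower in mTEC-I, while that at +7875 held 20.9 and 22.1 against 2.31 and 1.54. Its 10 kb sum was more open in mTEC-I (88.1 and 93.3 against 43.9 and 33.1 tags), and the sum over all its peaks was not (-0.01). Vegfa and Pdgfa had 3 and 4 peaks more open in mTEC-I and 3 each in mTEC-II. Gm31763, a predicted gene, had 9 and 5 of 24.

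**Figure D4:**
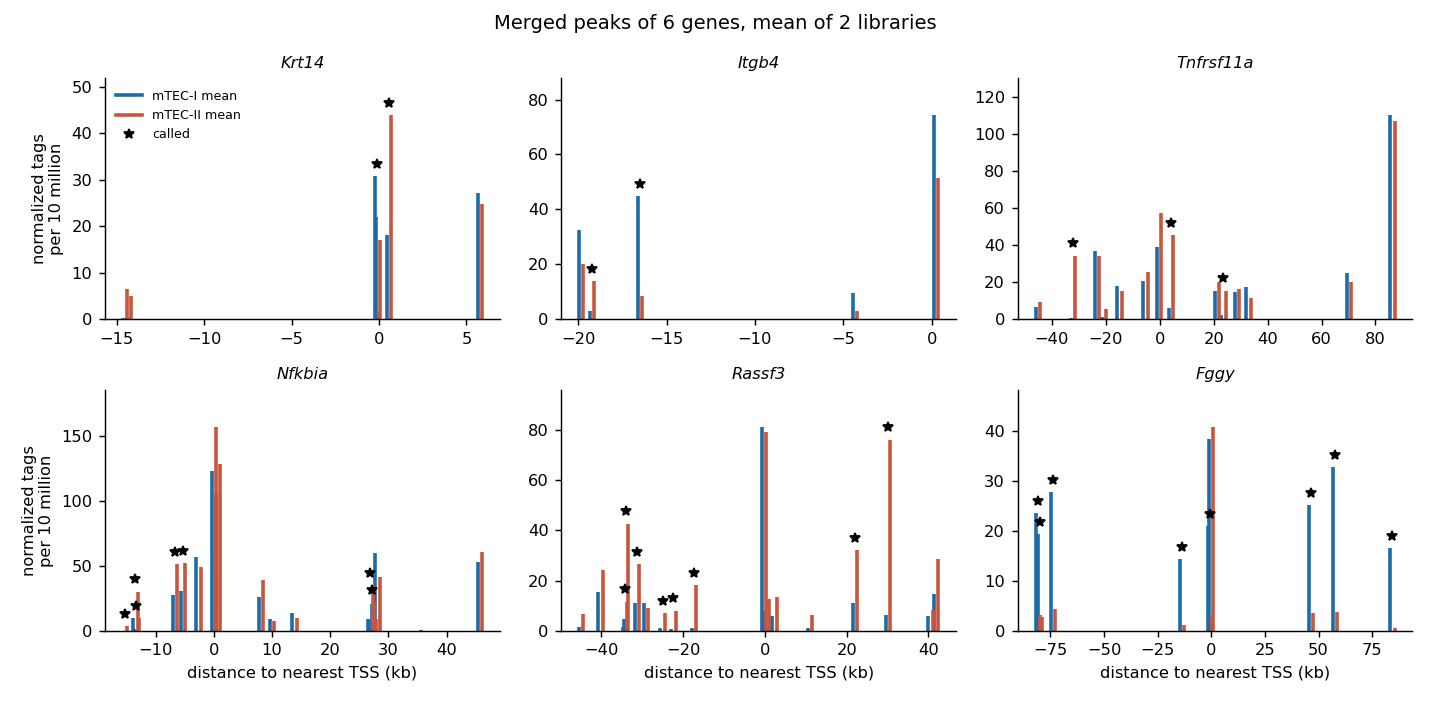
Mean normalized tags per 10000000 of 2 libraries in mTEC-I (blue) and mTEC-II (red) at each merged peak within 100 kb of 6 genes, against distance to the nearest TSS in kb; stars mark called peaks. At Tnfrsf11a, Nfkbia, Rassf3 and Fggy the peak nearest the start carries no star while more distant peaks do.

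Peaks called by the authors in each library alone were set beside these calls. By the merged table's own record of the lists each peak came from, 90.9% of the peaks more open in mTEC-I were in both mTEC-I lists and 13.1% in any mTEC-II list. Of those more open in mTEC-II, 40.7% were in both mTEC-II lists, 78.2% in at least 1, and 22.2% in any mTEC-I list. Another 1259 (21.6%) were in no list of either population and entered the merged table from mTEC-III or mTEC-IV lists. The mTEC-I lists held 44288 and 39040 peaks and the mTEC-II lists 19008 and 27739, in the same order as the total tags.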

How the data were processed

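The tools named, without roles, are HOMER, Picard 1.108 and bcl2fastq 2.15.0.4, and the build is mm9, per the submitters' processing notes; which aligner was used, and whether duplicates were removed or cut sites shifted, the sources used here do not say. The deposited table gives the authors' signal for each merged peak in tags per 10000000 total tags, with their nearest TSS and annotation, per the file headers. Multiplied back by each library's total tags, all deposited values (100% in each library) were whole multiples of 0.5 tags within the rounding of the deposited decimals (0.005), so read ends were recovered for edgeR and DESeq2. The authors' lists, called by HOMER in each library alone, were used only through the merged table's record of which lists a peak came from.

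Signal was scaled by TMM factors and log2(value + 1) was fitted with limma-trend (limma 3.58.1, R 4.3.3) over all 8 libraries, for features with at least 10 tags in at least 2 libraries, with Benjamini-Hochberg adjustment over all peaks or all genes at 0.05. edgeR 4.0.16 quasi-likelihood and DESeq2 1.42.0 on read ends were alternatives. Scripts were tested on simulated data. Groups and replicate numbers come from the sample titles.

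The comparison, the genes and the lists were chosen with earlier results of these data known. Named genes are 16 set genes, up to 4 called genes per list with the largest difference, the 8 largest differences in each direction (both libraries apart, mean log2 at least 4, no predicted or small RNA genes), the 6 largest single peaks each way, and the 6 genes with most called peaks within 100 kb. Start-site peaks were matched by symbol to RefSeq promoters of GRCm38.p6, since no mm9 sequence was used here. Values of a few listed genes are not reported here.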

Additional observations from a re-analysis of the deposited data

How the results depend on the processing

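In the 14 alternative settings no call turned to the opposite direction. Peaks more open in mTEC-I numbered 8534 with the authors' scaling (mTEC-II 4561), 9039 with edgeR (mTEC-II 8463) and 3033 after thinning every library to 3606436 tags (mTEC-II 3882). Genes more open in mTEC-II numbered 430 with the authors' scaling, and genes more open in mTEC-I 1350 with edgeR and 487 after thinning. Summing peaks within 1 kb gave 358 and 301 genes, and peaks at any distance 2160 and 2065, where 3 and 6 called genes turned to the opposite direction. Both sums lie outside the 14 settings. Of the called named genes tested within 1 kb, 38 kept the call and 35 lost it. At any distance 84 kept it, 16 lost it and 2 changed sign. With 1 library left out, the count of peaks ranged from 334 to 3842 (mTEC-I) and 2253 to 3185 (mTEC-II), and that of genes from 155 to 582 and 372 to 671. The sources used here do not say whether same-numbered replicates of the populations were paired, and the main fit did not pair them. Deviations of same-numbered libraries correlated at -0.013 between mTEC-I and mTEC-II, which with 2 libraries a group cannot show that they were unpaired. A fit with the replicate block gave 5665 and 5826 peaks and 838 and 962 genes. Of 102 named genes called, 29 were called in all 14 settings (12 toward mTEC-I, 17 toward mTEC-II) and 34 in all 4 fits with 1 library left out. Values that changed sign were Epcam 0.06, Krt8 0.08 and Rassf3 0.09 with the authors' scaling, Gm31763 -0.05 after thinning, Trp63 -0.18 and Krt14 -0.00 without mTEC-II replicate 1 (up to 0.95 and 0.49 with another library left out, mTEC-II replicate 2), Gm31763 -2.23 and Krt8 0.07 within 1 kb, and Krt8 0.22, Tiam1 -0.01 and 1700049E22Rik -0.33 at any distance; the cause was not tested. Depth limits calls at low values, and mTEC-II replicate 1 was the shallowest library. In the fits with 1 library left out the filter was applied again. Features with at least 10 tags only in the reduced group were then not tested and could not count as called.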

Other observations

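Called peaks were spread unevenly over chromosomes. On chromosome 3, 12.6% of 2967 tested peaks were more open in mTEC-I and 8.39% in mTEC-II, whereas on chromosome 19 the shares of 1841 peaks were 5.43% and 11.7%. Chromosome X had low shares both ways, 6.28% and 3.33% of 812 peaks. Peaks whose nearest gene is annotated as a noncoding RNA were called in 13.3% and 10.5% of 6895 cases, against 8.92% and 9.84% of 51409 peaks near protein-coding genes. These shares are descriptions of neighbouring peaks, with no test.

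Of 17 tested genes of cell survival and death 1 was more open in mTEC-I (5.88%, beside 5.73% of all genes) and 2 in mTEC-II (11.8%, beside 6.71%), counts near those of all genes. Bcl2, which restrains apoptosis, held 65.8 and 58.2 tags in mTEC-I against 25.4 and 30.1 (1.14, limma adjusted p = 0.00797), while its relative Bcl2a1d held 3.56 and 3.24 against 11.5 and 16.2 (-1.74), and the death gene Pmaip1 42.3 and 32.9 against 53.1 and 91.7 (-0.89). Each lost the call without mTEC-I replicate 1, with adjusted p of 0.118 for Bcl2, 0.130 for Bcl2a1d and 0.0709 for Pmaip1. Bcl2a1d belongs to a family of near-identical copies, so reads there may be shared. Of 9 tested cortical epithelial genes 2 (22.2%, beside 6.71% of all genes) were more open in mTEC-II and 0 in mTEC-I by limma. The 2 were Dll4 and Cd83, which are also on other lists. Toward mTEC-II and mTEC-I the counts were 2 and 0 by edgeR and 3 and 2 at unadjusted p under 0.05. The 9 summed to 660 and 682 tags for mTEC-I and 767 and 769 for mTEC-II, and Psmb11, the thymoproteasome subunit of the cortex, had no merged peak within 10 kb.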
